A study of Mus musculus with 8 samples.

Results

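The cyclin-dependent kinase (CDK) inhibitors are 7 genes in the mouse. Cdkn1a, Cdkn1b and Cdkn1c make up the CIP/KIP family, and Cdkn2a, Cdkn2b, Cdkn2c and Cdkn2d the INK4 family. They were taken by symbol from a table of 53012 genes, and all 7 had a row and enough counts to be tested among 15474 genes. Bulk RNA-seq was done on pancreatic islets of 4 βIgf1r and 4 βIgf1rKD mice, all 17 months old, with 1 library per mouse. All 8 mice were Igf1r flox/flox, with exon 3 of Igf1r between loxP sites. The βIgf1rKD mice also carried Ins1-CreERT2, a Cre recombinase driven by an insulin promoter and switched on by tamoxifen, and were given 0.075 mg tamoxifen per g body weight on 5 days, with islets taken 7 days later. The βIgf1r mice had no Cre and were given vehicle, so loss of Igf1r, Cre and tamoxifen cannot be told apart in this comparison. Males and females were used together and the sex of each mouse is not marked. Xist, a transcript of the inactive X chromosome, was at 402 CPM in 1 of 4 βIgf1r mice (M151) and at 2.04 to 6.71 CPM in the other 3, whereas it was at 270 to 411 CPM in 3 of 4 βIgf1rKD mice and at 1.22 CPM in M149, so the groups were unbalanced in Xist.

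CDK inhibitors hold back the entry of a cell into division. The INK4 proteins bind CDK4 and CDK6 and keep them from the D-type cyclins, whereas the CIP/KIP proteins bind whole cyclin and CDK complexes, above all those of CDK2. With the kinases inhibited, the retinoblastoma protein stays unphosphorylated and holds the E2F transcription factors. p16Ink4a, from Cdkn2a, and p21Cip1, from Cdkn1a, are widely used markers and effectors of senescence, p16Ink4a accumulates in islets with age and limits the replication of β-cells, and p27Kip1 from Cdkn1b, p18Ink4c from Cdkn2c and p57Kip2 from Cdkn1c also restrain β-cell division.

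Cdkn1a and Cdkn2a each have a pair of start sites in RefSeq, and their promoters are shown because p53 acts on Cdkn1a and because the count of Cdkn2a joins its p16Ink4a and p19Arf transcripts. RefSeq promoters on GRCm38.p6 were matched for 6 of the 7 genes, with 9 start sites in all. The bases before each start are printed up to the first annotated exon base. Capitals mark a CATG that recurs after 6 further bases, the core letters of the p53 motif, in the upstream promoter of Cdkn1a at chr17:29090729-29090975 (plus strand), and the GC box GGGGCGGGG in its downstream promoter at chr17:29093519-29093768 (plus strand). The promoters of Cdkn2a lie at chr4:89282193-89282442 (minus strand), before the p16Ink4a transcript, and at chr4:89294654-89294869 (minus strand), before the p19Arf transcript.
Cdkn1a upstream start: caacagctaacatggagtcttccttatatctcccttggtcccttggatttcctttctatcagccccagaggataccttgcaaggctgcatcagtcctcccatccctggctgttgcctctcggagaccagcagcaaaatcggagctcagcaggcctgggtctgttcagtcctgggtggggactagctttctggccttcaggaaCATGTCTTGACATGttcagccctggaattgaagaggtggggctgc
Cdkn1a downstream start: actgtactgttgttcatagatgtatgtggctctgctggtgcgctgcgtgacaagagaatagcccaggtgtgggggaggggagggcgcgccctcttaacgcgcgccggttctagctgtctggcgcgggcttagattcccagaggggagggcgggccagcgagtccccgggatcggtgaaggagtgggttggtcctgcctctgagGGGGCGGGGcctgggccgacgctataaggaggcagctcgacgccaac
Cdkn2a p16Ink4a start: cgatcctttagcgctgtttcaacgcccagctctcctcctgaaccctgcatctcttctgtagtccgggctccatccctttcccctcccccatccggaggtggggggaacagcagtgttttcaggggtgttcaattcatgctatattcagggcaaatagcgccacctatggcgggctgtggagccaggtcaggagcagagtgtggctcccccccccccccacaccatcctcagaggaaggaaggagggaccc
Cdkn2a p19Arf start: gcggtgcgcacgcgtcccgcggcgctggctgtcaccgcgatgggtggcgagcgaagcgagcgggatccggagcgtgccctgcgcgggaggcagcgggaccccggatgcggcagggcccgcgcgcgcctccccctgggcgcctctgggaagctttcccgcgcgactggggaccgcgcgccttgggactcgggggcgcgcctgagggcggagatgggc

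Searched on both strands, the spaced CATG pair was in 161 of 32851 RefSeq promoters (0.490%), and this motif was spelled out after the Cdkn1a promoter had been read. The full consensus of the p53 motif without a spacer, searched first, was in 3 of the 32851 promoters and in none of the 9 member windows, those of Cdkn1a included. The GC box was in 10.4% of the promoters. The E2F motifs TTTGGCGC (0.417% of the promoters) and TTTCGCGC (0.256%) and the FoxO motif GTAAACA (3.17%) were in none of the 9 member windows. The p19Arf promoter was the richer of the Cdkn2a pair in CpG, with 40 CpG and 78.4% GC in 250 bases against 7 CpG and 60.0% GC before p16Ink4a, beside a median of 6 CpG and 52.4% GC over all promoters. No binding or methylation was measured, so these letters are a description of the sequence.

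On GRCm38 in GENCODE M21, Cdkn1a (ENSMUSG00000023067) lies at chr17:29090976-29100727, Cdkn1b (ENSMUSG00000003031) at chr6:134920401-134925513, Cdkn1c (ENSMUSG00000037664) at chr7:143458339-143461050 and Cdkn2d (ENSMUSG00000096472) at chr9:21288410-21291407. The other INK4 genes are on chromosome 4: Cdkn2a (ENSMUSG00000044303) at chr4:89274471-89294653, Cdkn2b (ENSMUSG00000073802) at chr4:89306299-89311039 and Cdkn2c (ENSMUSG00000028551) at chr4:109660876-109667189. Cdkn2a and Cdkn2b are neighbours, with 11.6 kb between them. Counts are per gene, and the p16Ink4a and p19Arf transcripts share all of exon 2 of Cdkn2a and a part of exon 3. Of the 31-base words in the exons of Cdkn1a, 3.24% also occur in exons of other genes on the same strand, so a part of its count is uncertain, whereas Cdkn2a, Cdkn2b, Cdkn2c and Cdkn2d share none. The antisense gene Gm44732 overlaps Cdkn1c and had 0 to 1 counts in a mouse. AC167363.2 overlaps Cdkn1a on the opposite strand and was not among the genes counted. On the opposite strand, 9.75% of the 31-base words of Cdkn1a occur in exons of other genes.

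Total counts were 21633925 to 31202015 in βIgf1r and 23825864 to 42391106 in βIgf1rKD mice. Igf1r, the targeted gene, was at 46.8, 48.0, 60.9 and 58.7 CPM (counts scaled to library size) in the βIgf1r mice M148, M151, M152 and M153 and at 46.9, 50.2, 57.9 and 47.8 CPM in the βIgf1rKD mice M145, M146, M149 and M150. These values overlapped, in a count that spans the whole gene and not exon 3 alone. All 10 β-cell markers were well above 0 in every mouse. Of these 10, 6 were lower in βIgf1rKD islets and 1 had an unadjusted p under 0.05 in edgeR, beside 47.7% and 4.12% of all genes. Acinar enzyme genes, a sign of exocrine tissue in the preparation, took 2.50% to 18.3% of the counts in βIgf1r and 5.28% to 20.5% in βIgf1rKD mice, and the fitted fold was above 1 for all 12 of these markers with 0 at an unadjusted p under 0.05 in edgeR. In bulk islets, fewer cells of a type and less RNA per cell cannot be told apart.

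Cdkn1b was the most abundant CDK inhibitor of the islets and Cdkn1c and Cdkn2a the scarcest. As CPM per kb of merged exons over the 8 mice, Cdkn1b was at 14.0 ± 1.25 (SD, n = 8) and Cdkn1a at 6.87 ± 4.48. Cdkn2b, which encodes p15Ink4b, was at 4.94 ± 0.681 and Cdkn2d, which encodes p19Ink4d, at 4.84 ± 1.10 on this scale. Cdkn2c was at 1.92 ± 0.293, Cdkn2a at 0.686 ± 0.255 and Cdkn1c at 0.596 ± 0.134. Cdkn1b thus stood at the 86.2 percentile of the genes tested, and Cdkn2a and Cdkn1c at the 20.9 and 19.05 percentiles.

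**Figure D1:**
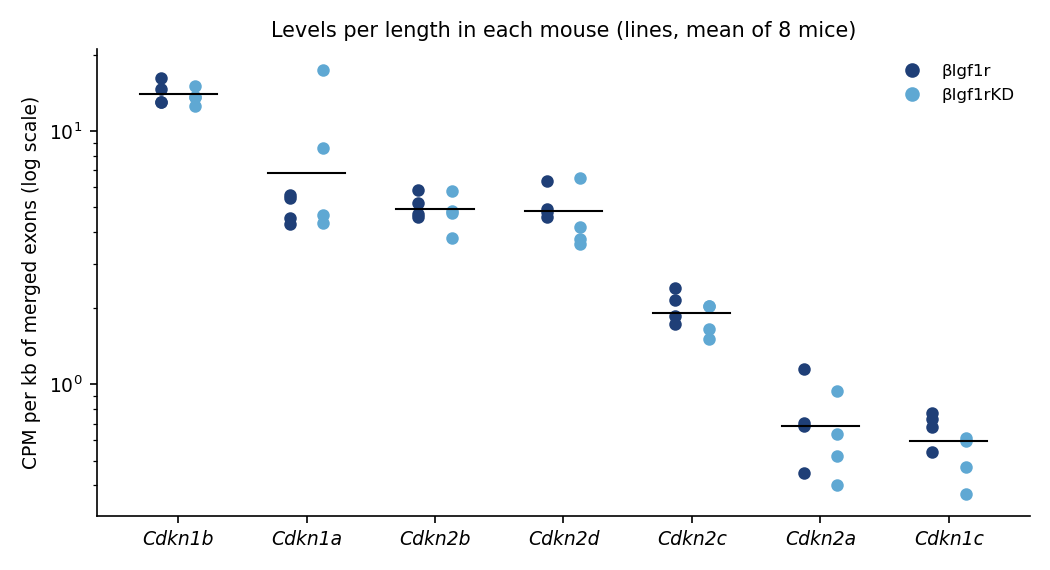
Level of each CDK inhibitor in CPM per kb of merged exons (log scale), 1 point per mouse, dark for βIgf1r and light for βIgf1rKD, with a line at the mean of 8 mice. Cdkn1b is at the top with a mean of 14.0, Cdkn1a spreads widest and Cdkn1c and Cdkn2a lie lowest.

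Neighbours in this order were compared within mice. Cdkn2d exceeded Cdkn2c by 1.32 on the log2 scale and Cdkn2c exceeded Cdkn2a by 1.56, each in 8 of 8 mice (exact two-sided sign-flip permutation test, adjusted p = 0.0234 for both over 6 pairs). Cdkn1b exceeded Cdkn1a by 1.20 in 7 of 8 mice (exact sign-flip permutation test, adjusted p = 0.0313), all but M149. Cdkn1a and Cdkn2b (log2 difference 0.31, adjusted p = 0.516 by the same exact test), Cdkn2b and Cdkn2d (0.05, adjusted p = 0.563) and Cdkn2a and Cdkn1c (0.16, adjusted p = 0.563) did not differ beyond their spread. With the longest transcript of each gene as its length, Cdkn1b over Cdkn1a was 0.43 (exact test, adjusted p = 0.169) and Cdkn1a over Cdkn2b was 1.08 (exact test, adjusted p = 0.0156), so the place of Cdkn1a depends on the length used. The CIP/KIP genes held 54.7% to 74.7% of the summed level per kb in a mouse, and the INK4 genes 25.3% to 45.3%.

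None of the CDK inhibitors differed between the groups by more than the spread between mice. By edgeR's quasi-likelihood test, 0 of the 7 passed an unadjusted p of 0.05, where 4.12% of all genes tested passed it (2.23% higher and 1.89% lower in βIgf1rKD islets). After Benjamini-Hochberg adjustment 0 of the 7 passed, and 0% of all genes. DESeq2 and limma-voom also gave 0 of 7 at an unadjusted p, and 8 and 1 of all genes at an adjusted p. The βIgf1rKD and βIgf1r mice overlapped for every member, whereas 2.22% of all genes had groups that did not overlap. The fitted log2 fold change was below 0 for 6 of 7 members, beside 47.7% of all genes, and above 0 for Cdkn1a. Its median was -0.17 over the members and 0.01 over all genes.

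**Figure D2:**
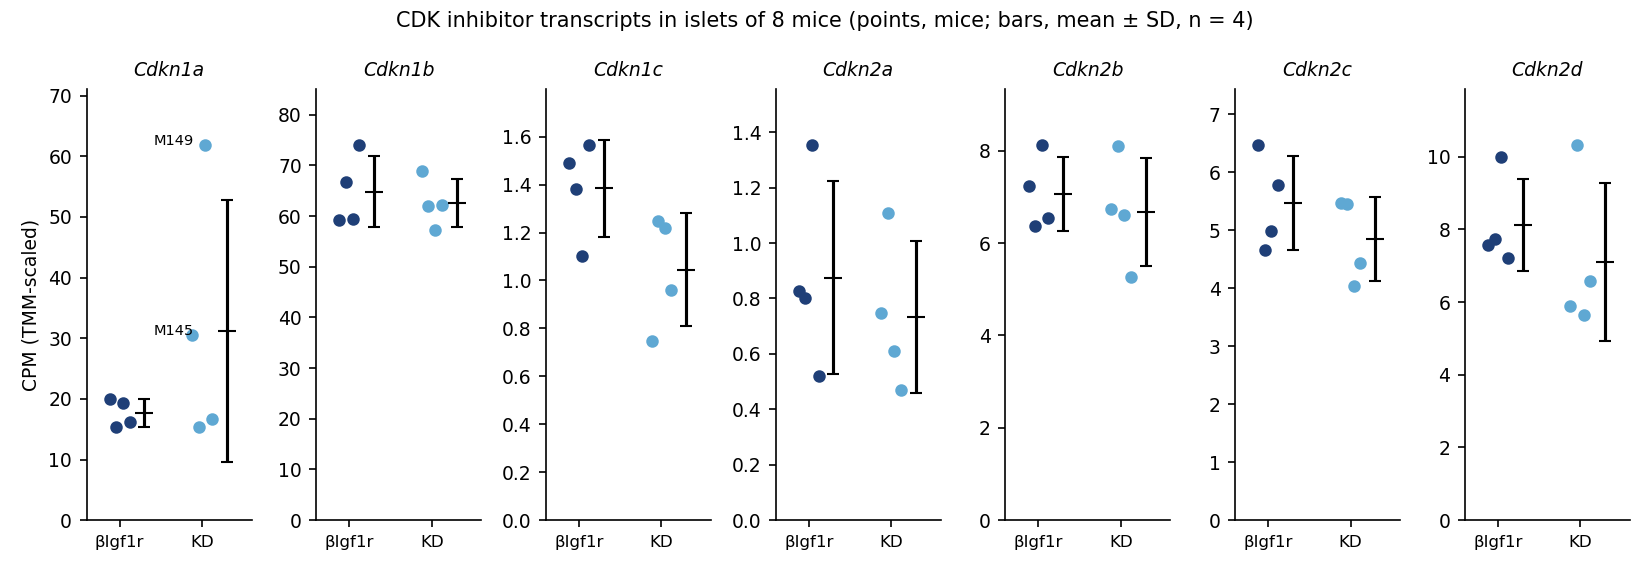
CPM of each CDK inhibitor in each mouse, with the mean and SD of 4 mice per group; KD is βIgf1rKD, and each panel has its own axis from 0. The groups overlap in all 7 panels, and M149 and M145 carry the high Cdkn1a values of the βIgf1rKD group, 61.8 and 30.6 CPM.

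Cdkn1a, which encodes p21Cip1, had the largest difference. In the βIgf1r mice M148, M151, M152 and M153 it was at 19.99, 15.3, 19.3 and 16.2 CPM. In the βIgf1rKD mice M145, M146, M149 and M150 it was at 30.6, 15.4, 61.8 and 16.6 CPM. M149 and M145 were thus above every βIgf1r mouse, while M146 and M150 lay within the βIgf1r range. The means ± SD of 4 mice were 17.7 ± 2.30 CPM for βIgf1r and 31.1 ± 21.6 CPM for βIgf1rKD, and the coefficient of variation was 12.96% and 69.4%. The log2 fold change was 0.81 (standard error 0.40, 95% interval -0.08 to 1.70) with an adjusted p of 0.987 by edgeR's quasi-likelihood test (unadjusted p = 0.0710). An exact permutation test, two-sided, on log2 CPM gave p = 0.314, where 0.0286 is the smallest p that 4 against 4 mice allow.

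The size of the Cdkn1a difference turned on M149. Without M149 the log2 fold change was 0.23 (standard error 0.23, edgeR unadjusted p = 0.352). Without M146 or M150, the mice with the lower values, it was 1.03 (unadjusted p = 0.0198) or 1.02 (unadjusted p = 0.0253). With the acinar marker score as a covariate it was 0.45 (standard error 0.46) and with the endothelial score 1.31 (standard error 0.67). With Xist as a covariate it was 0.9996 (unadjusted p = 0.00867, adjusted p = 0.657 by edgeR, where the adjusted p ran from 0.657 to 0.99997 over the alternatives). M149 had the most acinar RNA of the 8 mice, 20.5% of its counts. M145 had 18.4% and 30.6 CPM of Cdkn1a, and M152 of the βIgf1r group had 18.3% and 19.3 CPM. Over the 8 mice Cdkn1a and the acinar score had a Pearson r of 0.546 (exact permutation test, adjusted p = 0.505). M149 also had the highest summed macrophage markers (296 CPM, against 124 to 185 in βIgf1r mice), duct markers (299 CPM, against 196 to 244) and mesenchymal markers (367 CPM, against 204 to 231). Its scores of alpha cell, delta cell and Schwann cell markers were the lowest of the 8 mice, and it was the only βIgf1rKD mouse with little Xist. Their part in its Cdkn1a level was not tested.

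**Figure D3:**
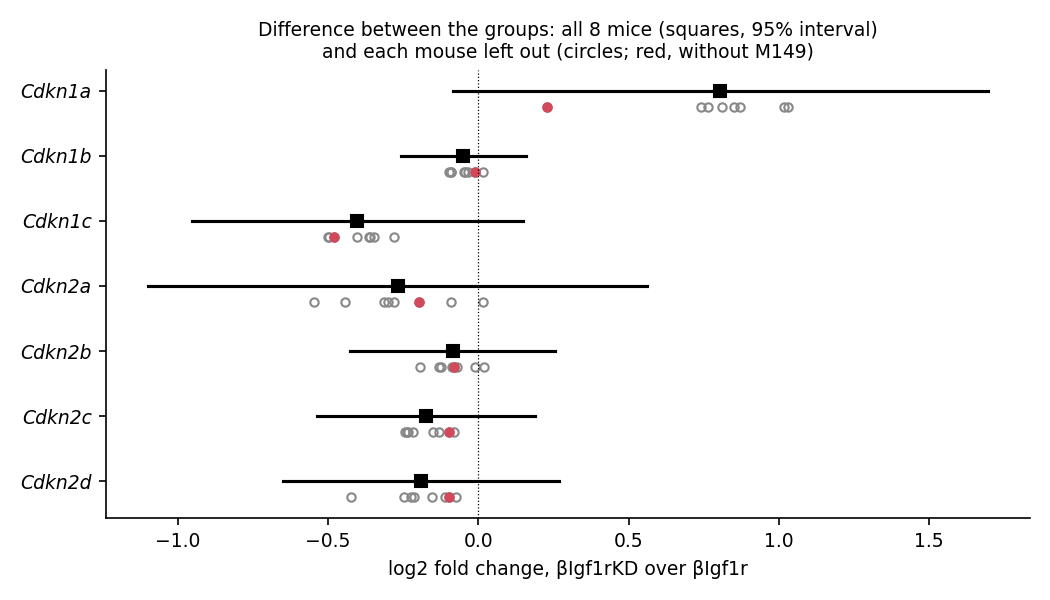
Log2 fold change of each CDK inhibitor, βIgf1rKD over βIgf1r, from all 8 mice (squares, with 95% intervals) and with each mouse left out (circles, red without M149). Every interval includes 0, and the circle of Cdkn1a without M149, at 0.23, stands apart from its others.

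Cdkn1b, which encodes p27Kip1, was the steadiest member. Its CPM was 59.2, 66.7, 59.4 and 74.0 in the βIgf1r mice M148, M151, M152 and M153, and 68.9, 62.0, 57.3 and 62.2 in the βIgf1rKD mice M145, M146, M149 and M150. The groups covered nearly the same range. The log2 fold change was -0.05 (standard error 0.09), and its 95% interval of -0.26 to 0.16 corresponds to a fold between 0.836 and 1.12.

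Cdkn1c, the imprinted gene of p57Kip2, was scarce, with 16 to 56 counts per mouse. It was at 1.49, 1.38, 1.10 and 1.56 CPM in M148, M151, M152 and M153 and at 0.749, 1.25, 1.22 and 0.962 CPM in M145, M146, M149 and M150. Of the βIgf1r mice only M152 lay within the βIgf1rKD range. The means were 1.39 ± 0.202 and 1.04 ± 0.236 CPM (SD, n = 4 each), and the log2 fold change of -0.40 (standard error 0.25, 95% interval -0.95 to 0.15) stayed below 0 with each mouse left out (-0.50 to -0.28; exact permutation test, p = 0.0857). With the endothelial score as a covariate it was -0.11 (standard error 0.41). That score ran from -0.13 to 1.36 in βIgf1r mice and from -0.90 to -0.29 in βIgf1rKD mice. The groups did not overlap in it, so a fit with this covariate can hardly separate the score from the group. All 10 endothelial markers tested were lower in βIgf1rKD islets, where 47.7% of all genes were lower. An unadjusted p under 0.05 was reached by 4 of the 10, beside 4.12% of all genes. The sum of these markers was 452 to 575 CPM in βIgf1r and 402 to 450 CPM in βIgf1rKD mice.

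Cdkn2a, the gene of p16Ink4a and p19Arf, gave 11 to 38 counts per mouse. It was at 0.825, 0.800, 1.35 and 0.521 CPM in the βIgf1r mice M148, M151, M152 and M153, and at 0.749, 1.11, 0.609 and 0.469 CPM in the βIgf1rKD mice M145, M146, M149 and M150. The highest value was in a βIgf1r mouse and the lowest in a βIgf1rKD mouse, and the others were intermingled. The log2 fold change was -0.27 (standard error 0.37, 95% interval -1.10 to 0.56), which includes both a fall by more than 1 on the log2 scale and a rise. Without M152 it was 0.01, so its sign rested on that mouse.

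The other INK4 genes were measured with more counts and differed less. Cdkn2b was at 6.37 to 8.12 CPM in βIgf1r and 5.25 to 8.10 CPM in βIgf1rKD mice, and its log2 fold change was -0.08 (standard error 0.15, 95% interval -0.43 to 0.26). Cdkn2c was at 4.66 to 6.47 and 4.05 to 5.47 CPM, and its log2 fold change was -0.17 (standard error 0.16, 95% interval -0.54 to 0.19), or -0.082 without M148 and -0.099 without M149. Cdkn2d was at 7.20 to 10.003 CPM in βIgf1r mice, and at 5.89, 10.3, 5.66 and 6.59 CPM in M145, M146, M149 and M150. 3 of the βIgf1rKD mice were thus below every βIgf1r mouse for Cdkn2d and M146 was above them all. The log2 fold change of Cdkn2d was -0.19 (standard error 0.20, 95% interval -0.65 to 0.27) with all mice and -0.42 (edgeR unadjusted p = 0.0194) without M146. With the endothelial score as a covariate the values of Cdkn2b and Cdkn2c were 0.059 and 0.085 (standard errors 0.27 and 0.28).

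Among the members, the neighbours Cdkn2a and Cdkn2b varied together most closely from mouse to mouse. Over the 8 mice their log2 CPM had a Pearson r of 0.886 (exact permutation p = 0.00409, adjusted p = 0.0859 over 21 pairs) and a Spearman rho of 0.857 (exact permutation p = 0.0107, adjusted p = 0.225), so the relation did not pass the adjustment. M152 and M146 were high for both genes and M150 was low for both. Without M152 and M150, the mice farthest from the median of Cdkn2a, r was 0.780, and as deviations from the group means it was 0.878 (exact permutation test, adjusted p = 0.146). Cdkn2a with Cdkn2d had an r of 0.781 (exact permutation p = 0.0222, adjusted p = 0.233) and a rho of 0.762 (exact permutation p = 0.0368, adjusted p = 0.386). Of the 21 pairs, 2 passed an unadjusted and 0 an adjusted p of 0.05 by this permutation test.

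The members were also set against scores of cell type markers, in 49 relations. Cdkn2c was lower in mice with more macrophage marker RNA, with an r of -0.904 (exact permutation p = 6.94e-04, adjusted p = 0.0340 over 49 relations) and a rho of -0.905 (exact permutation p = 0.00456, adjusted p = 0.224). The r was -0.896 without M149 and M151, the mice farthest from the median score, and -0.941 to -0.894 with each mouse left out. As deviations from the group means it was -0.883 (exact permutation test, adjusted p = 0.0304). Of the 10 macrophage markers 8 were higher in βIgf1rKD islets, beside 8086 of 15474 genes tested. An unadjusted p under 0.05 was reached by 3 of the 10, beside 4.12% of all genes. None of these markers was at 0, and their sum was 124 to 185 CPM in βIgf1r and 144 to 296 CPM in βIgf1rKD mice. Cdkn1c followed the endothelial score with an r of 0.739 (exact permutation p = 0.0344, adjusted p = 0.505) and a rho of 0.810 (exact permutation p = 0.0218, adjusted p = 0.534), which fell to an r of 0.582 without M148 and M153. As deviations from the group means the r of Cdkn1c was 0.481 (exact permutation test, adjusted p = 0.683), and both Cdkn1c and the endothelial score were lower on average in βIgf1rKD islets.

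**Figure D4:**
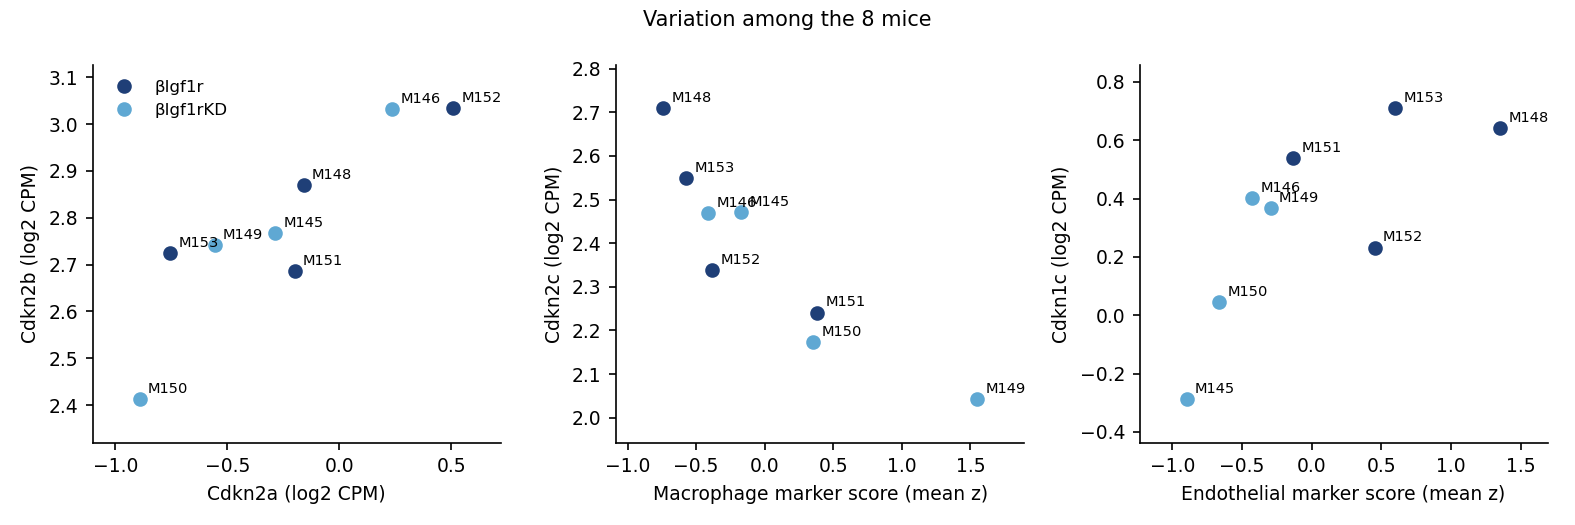
Cdkn2b against Cdkn2a (log2 CPM), Cdkn2c against the macrophage marker score and Cdkn1c against the endothelial marker score (mean z over the markers), 1 point per mouse, dark for βIgf1r and light for βIgf1rKD. M149 has the highest macrophage score and the lowest Cdkn2c, and the r values are 0.886, -0.904 and 0.739.

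None of the kinases and cyclins that the inhibitors bind differed beyond the spread between mice. Of 15 such genes 13 were tested, 7 were higher and 6 lower, and 0 passed an unadjusted and 0 an adjusted p of 0.05 by edgeR's test. Per kb of merged exons, Ccnd2, which encodes cyclin D2, was at 67.1 CPM, Cdk4 at 26.96 CPM and Ccnd1 at 15.2 CPM. Cdk6, the other target of the INK4 proteins, was at 0.132 CPM per kb and Cdk2 at 0.314. Cdk4 was thus far above Cdk6 in these islets, and Cdk6 had the largest difference of the list (log2 fold change 0.79, standard error 0.51). Of 12 tested pocket proteins and E2F factors 4 were higher and 8 lower, with 0 at an unadjusted p under 0.05, and the largest difference was that of E2f1 (0.36, standard error 0.28).

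Genes of p53 and its targets were listed because Cdkn1a is the best known of these targets. All 29 genes of the list were tested, 21 were higher and 8 lower in βIgf1rKD islets, and the median log2 fold change was 0.16. Over all genes tested, 8086 of 15474 were higher and the median was 0.01. Only Aen, a nuclease gene, and Perp, a membrane protein gene of apoptosis, had an unadjusted p under 0.05 (log2 fold changes 0.28 and 1.10, standard errors 0.12 and 0.47), and 0 of the 29 had an adjusted p under 0.05 by edgeR's test. The unadjusted p of Aen was over 0.05 without M148, M151, M153, M146 or M149 (0.0542 to 0.117), and that of Perp without M148, M151, M152, M153, M145 or M149 (0.0562 to 0.197). Without M149, 15 were higher and 14 lower, the median was 0.01 and 0 had an unadjusted p under 0.05. Over all genes in that fit the median was 0.006 and 580 of 15474 had such a p. M149 was the highest mouse for 14 of the 29 genes, or 48.3%, where it was the highest for 16.2% of all genes tested.

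In M149 some p53 targets were high along with Cdkn1a and others were not. Against the median of the other mice, Cdkn1a was 3.72 times as high in M149, Perp 4.14 times, Phlda3, an inhibitor of Akt signalling, 4.13 times, the receptor gene Eda2r 3.93 times and the stress cytokine gene Gdf15 5.93 times. Trp53inp1 was 2.21 times and Ccng1 1.73 times as high. Mdm2, the ubiquitin ligase of p53, was at 0.90 of the others' median, Sesn1 at 0.83 and Trp53cor1, a long non-coding RNA next to Cdkn1a, at 0.93. These genes were picked after their values were seen, and in 1 mouse the ratios have no replicate.

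**Figure D5:**
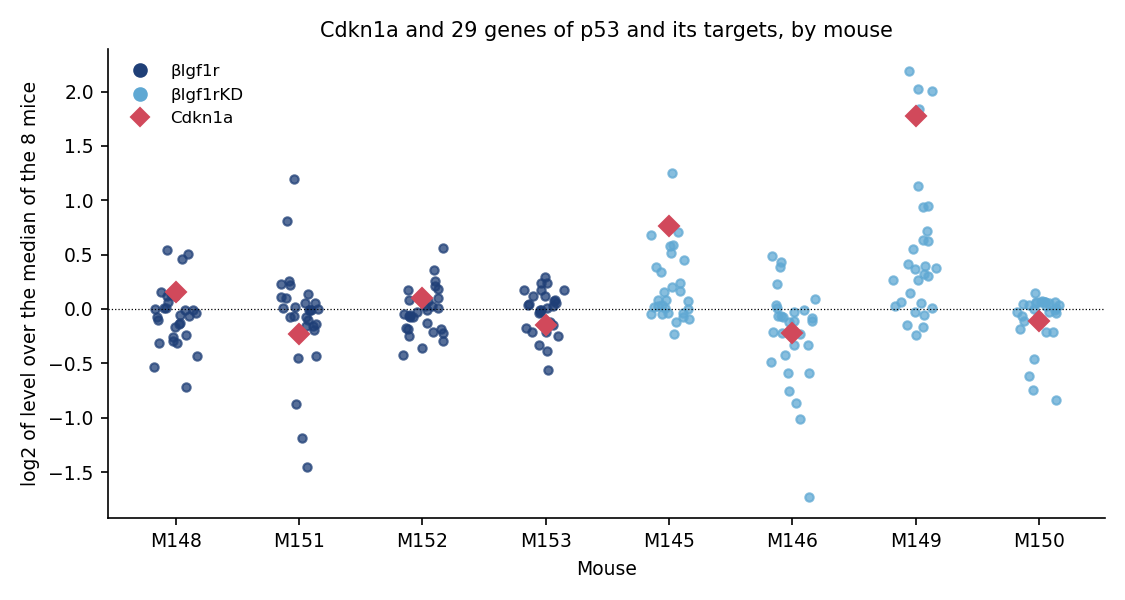
Level of the 29 genes of p53 and its targets (circles) and of Cdkn1a (diamonds) in each mouse, as log2 over the median of the 8 mice. An offset of 0.1 was added to each CPM first, which shrinks the values of scarce genes such as Gdf15. Dark is βIgf1r and light is βIgf1rKD. The genes of M149 reach highest, up to 2.19 for Gdf15, with Cdkn1a at 1.78. Those of M150 run from -0.83 for Gdf15 to 0.14 for Plk2.

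The regulators of the other members were described in the same way. A list for the control of Cdkn1b held genes of p27 turnover, FoxO factors and Foxm1. Of its 15 tested genes 7 were higher and 8 lower, with the largest difference for Foxm1 (0.38). Of 8 genes of the menin and MLL complex, which keeps Cdkn1b and Cdkn2c active in islets, 5 were higher and 3 lower, with the largest difference for Psip1 (-0.15). Neither list held a gene with an unadjusted p under 0.05. Of 28 tested genes of the Polycomb complexes and other regulators of the Cdkn2a and Cdkn2b locus, 18 were higher and 10 lower, and Myc had an unadjusted p under 0.05.

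Myc was at 3.14, 3.78, 3.60 and 3.98 CPM in the βIgf1r mice M148, M151, M152 and M153, and at 11.1, 2.93, 10.8 and 4.39 CPM in the βIgf1rKD mice M145, M146, M149 and M150 (log2 fold change 1.003, standard error 0.39). The mice with high Myc, M145 and M149, are those with high Cdkn1a, and without M145 or M149 the log2 fold change of Myc was 0.73 or 0.75. Its unadjusted p of 0.0294 was over 0.05 without M148, M151, M152, M145 or M149 (0.0515 to 0.0962, edgeR). Of 10 tested imprinted neighbours of Cdkn1c, 6 were higher and 4 lower with 0 at an unadjusted p under 0.05. The largest difference among them was that of Kcnq1, a potassium channel gene (0.71, standard error 0.39). Together the 8 lists held 138 tested genes, of which 3, or 2.17%, passed an unadjusted and 0 an adjusted p of 0.05 by edgeR's test, beside 4.12% and 0% of all genes.

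The genes most like each member were those with the highest Pearson r of log2 CPM over the 8 mice among 15467 genes. For Cdkn1a these were Trib3, a pseudokinase gene of the stress response (r = 0.984), Slc22a18 (0.979) and Phf10 (0.978), and without M149 their r was 0.925, 0.920 and 0.920. Without both M149 and M145, the mice with high Cdkn1a, it was 0.972 for Trib3, 0.786 for Slc22a18 and 0.749 for Phf10. Trib3 was at 3.35 to 5.91 CPM in βIgf1r mice and at 7.20, 3.86, 21.1 and 4.39 CPM in M145, M146, M149 and M150. It ranked the 8 mice in the same order as Cdkn1a. For Cdkn1b the leading genes were Jmy (0.977), Mtdh (0.966) and Bicd1 (0.963), and for Cdkn1c they were Cetn2 (0.986), Prmt1 (0.953) and 5033406O09Rik (0.951).

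In the INK4 family, Cdkn2a was most like Zfp740 (0.944), Nom1 (0.941) and Lmbr1l (0.936), and Cdkn2b most like Tnnc1 (0.958), AC140278.1 (0.958) and Abca4 (0.947). Cdkn2c was most like A330094K24Rik (0.976), a second identifier with the same values, and Parn (0.966). Cdkn2d was most like H2afy (0.980), Rnf145 (0.979) and Cmtm6 (0.974). Each r is the highest of many over 8 libraries that also share depth and cell make-up, and it is a description with no test.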

How the data were processed

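Bulk RNA-seq of islets from 4 βIgf1r and 4 βIgf1rKD mice was used, and groups came from the sample labels. The authors deposited an estimated count per Ensembl gene and mouse, without scaling. The submitters' processing notes name fastp, kallisto and GRCm38, and versions are not given in the sources used here. Of the values 13.4% were not whole, and all were rounded. Totals of 21633925 to 42391106 per mouse leave counting error large only for scarce genes such as Cdkn2a. Symbols were matched for 51906 of 53012 identifiers, and exon lengths and coordinates come from GENCODE M21 (GRCm38).

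edgeR 4.0.16 in R 4.3.3 filtered the genes with its defaults (minimum count 10, minimum total 15), which kept 15474, and scaled them by TMM factors. Groups were compared by the quasi-likelihood test with Benjamini-Hochberg adjustment over all genes tested, with p under 0.05 as threshold. Standard errors and 95% intervals were derived from the F statistic. CPM were scaled by those factors, with a prior count of 2 on the log2 scale. Permutation tests were exact and two-sided. Those of the groups ran over 70 assignments of 4 and 4 mice. Those of levels within mice ran over 256 sign flips (128 with a mouse left out), and those of correlations over all pairings of the 8 mice. A marker score is the mean z-score of log2 CPM over a list. The alternatives were limma-voom (limma 3.58.1), DESeq2 1.42.0, RLE scaling, other filters, Xist, acinar or endothelial covariates, and each mouse left out. Scripts were tested on simulated counts. No library was a copy of another of its group, with a chi-square per degree of freedom of at least 78.6 between mice of a group. Pairs of libraries across the groups were not compared.

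The members and gene lists were chosen with earlier results of these data known, and the lists were written from general knowledge. The genes named are the members, Igf1r, the genes of each list with an unadjusted p under 0.05 or the largest log2 fold change, cyclins and CDKs whose level is given, and for each member the 3 genes of highest r. Other genes named were picked after their values were seen. Nothing in the labels says how the 8 libraries were batched.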

Additional observations from a re-analysis of the deposited data

How the results depend on the processing

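The 7 members had 112 log2 fold changes under the alternatives, of which 102 kept their direction and their side of an unadjusted p of 0.05, 5 changed direction and 5 passed the threshold. Cdkn1a passed it with Xist as a covariate (0.9996), with no filter on low counts (0.80) and without M146 or M150, and with each mouse left out it ran from 0.23 to 1.03. Leaving out each mouse gave -0.10 to 0.015 for Cdkn1b (above 0 without M153), -0.55 to 0.014 for Cdkn2a (above 0 without M152), -0.19 to 0.018 for Cdkn2b (above 0 without M150), -0.24 to -0.082 for Cdkn2c and -0.42 to -0.075 for Cdkn2d (past the threshold without M146). With the endothelial score as a covariate, Cdkn2b and Cdkn2c were at 0.059 and 0.085 (standard errors 0.27 and 0.28), and 4 of 7 members were lower in βIgf1rKD islets. The groups did not overlap in that score, so its fit can hardly separate the score from the group. The cause of these shifts was not tested.

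The number of members with an unadjusted p under 0.05 was 1 with Xist, 1 with no filter and 0 to 2 with a mouse left out (2 without M146, 1 without M150). Over all genes, 637 had an unadjusted p under 0.05. The count was 1143 with Xist, 381 with the acinar score, 605 with the endothelial score and 1098 with no filter (more genes tested). With a mouse left out it was 377 to 1094 (377 without M148, 396 without M153, 827 without M150, 950 without M146, 1094 without M152). At an adjusted p the count was 0 by edgeR, 8 by DESeq2 and 1 by limma-voom. In the pathway lists 3 genes had an unadjusted p under 0.05, 1 by limma-voom and 0 to 12 with a mouse left out (0 without M148, 1 without M145, 6 without M152, 7 without M150, 12 without M146). With Xist as a covariate, the p53, Polycomb, imprinted and menin lists held 5, 4, 2 and 1 such genes. With the endothelial score, the p53, menin and Polycomb lists held 3, 2 and 1. With the acinar score each list held 0.

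In the order of levels, the longest transcript as length gave 0.43 for Cdkn1b over Cdkn1a, 1.08 for Cdkn1a over Cdkn2b and -0.10 for Cdkn2b over Cdkn2d. With a mouse left out, Cdkn1b over Cdkn1a ran from 1.11 to 1.44 and Cdkn2b over Cdkn2d from -0.0019 (without M149) to 0.080. With any mouse other than M149 left out, the former had an exact permutation adjusted p of 0.0625, and without M149 one of 0.0313. No paired analysis was made because the labels give no litter or pair of the mice. The 11 to 38 counts of Cdkn2a and 16 to 56 of Cdkn1c limit what could be detected for these genes.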

Other observations

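Proliferation genes, which lie downstream of the CDK inhibitors, did not separate the groups. Of 23 tested genes 16 were higher and 7 lower in βIgf1rKD islets, 0 passed an unadjusted and 0 an adjusted p of 0.05 in edgeR, and the median log2 fold change was 0.05. The largest was that of Birc5, which encodes survivin (0.68, standard error 0.70). The βIgf1r mouse M151 was the highest mouse for 12 of the 23 genes, or 52.2%, where it was the highest for 15.9% of all genes tested.

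The βIgf1rKD mouse M146 was the highest for 5 of the 8 genes of the menin and MLL complex, or 62.5%, and for 5 of the 10 imprinted neighbours of Cdkn1c, where it was the highest for 21.2% of all genes. In 14 sets of 4 mice, 1 for each member in each group, 0 held a mouse beyond Dixon's critical value, and the largest ratio, 0.778, was that of Cdkn2d in βIgf1r mice.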
